A study of Mus musculus with 46 samples.

Results

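T cell receptor beta (TRB) rearrangements of immunized mice were set against those of naive mice in 3 matched pairs of libraries. The pairs hold 6 of the 17 libraries analysed, out of 46 labelled samples, of which 29 were not analysed here, and 86116 of 153913 listed clones. They were chosen by their labels: cell type and gestational state are the same within a pair and immunization differs. No measured value is part of this rule, but earlier results of these data were known when it was set. The EAE groups were Tcon at embryonic day 18 of pregnancy (E18), Tcon of a non-pregnant mouse and Treg of a non-pregnant mouse. Each stands against the naive group of the same cell type and state. Per the labels, all 6 come from DEREG mice, a transgenic line in which Foxp3-expressing cells are marked, and from spleen and lymph nodes. Tcon are CD4+Foxp3- conventional T cells and Treg are CD4+Foxp3+ regulatory T cells. EAE is experimental autoimmune encephalomyelitis, an animal model of multiple sclerosis. Each group is 1 library with no replicate, and the labels do not say whether the non-pregnant Treg and Tcon libraries of a condition share a mouse. Age and the number of sorted cells are not given in the sources used here. Rearrangements were amplified from genomic DNA with primers for V and J segments. No expression was measured, so the sorted cell types cannot be checked against marker genes.

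Each T cell joins 1 V, 1 D and 1 J segment of the TRB locus, and enzymes trim the ends and insert random bases at the joints. The joint encodes the CDR3, the loop of the receptor that touches the presented peptide. All daughters of a cell carry the same rearrangement, so a clone that divides after meeting its antigen takes a larger share of the rearrangements read. Immunization for EAE is given to make myelin-reactive CD4+ T cells divide. In C57BL/6 mice many T cells that recognise myelin oligodendrocyte glycoprotein use TRBV13-2 (Vβ8.2).

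The largest clones are shown because the difference between EAE and naive libraries is largest among them. A clone is 1 listed rearrangement, that is a V segment, a J segment and a CDR3 nucleotide sequence. The sequences are the 3 largest clones of each EAE library and the largest clone of each naive library. They run 5′ to 3′ from the conserved cysteine codon to the last CDR3 codon, and capitals mark the bases that the deposited tables assign to neither V nor J. The rank 3 clone of EAE Tcon E18 has no capitals because V and J cover all of it.
EAE Tcon E18 rank 1, TRBV1 TRBJ1-1: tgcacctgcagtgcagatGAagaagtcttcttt
EAE Tcon E18 rank 2, TRBV19 TRBJ2-2: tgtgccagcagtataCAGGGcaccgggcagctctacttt
EAE Tcon E18 rank 3, TRBV1 TRBJ2-5: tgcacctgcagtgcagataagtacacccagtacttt
naive Tcon E18 rank 1, TRBV13-2 TRBJ2-5: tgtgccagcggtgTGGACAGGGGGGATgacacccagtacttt
EAE Tcon non-pregnant rank 1, TRBV19 TRBJ2-7: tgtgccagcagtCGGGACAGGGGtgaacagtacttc
EAE Tcon non-pregnant rank 2, TRBV13-2 TRBJ2-1: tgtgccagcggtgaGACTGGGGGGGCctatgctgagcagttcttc
EAE Tcon non-pregnant rank 3, TRBV1 TRBJ2-5: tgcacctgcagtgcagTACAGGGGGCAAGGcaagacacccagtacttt
naive Tcon non-pregnant rank 1, TRBV1 TRBJ2-2: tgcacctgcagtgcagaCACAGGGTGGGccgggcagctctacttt
EAE Treg non-pregnant rank 1, TRBV1 TRBJ2-7: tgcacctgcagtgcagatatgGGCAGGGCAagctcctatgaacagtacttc
EAE Treg non-pregnant rank 2, TRBV1 TRBJ2-4: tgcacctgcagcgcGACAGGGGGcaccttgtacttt
EAE Treg non-pregnant rank 3, TRBV13-2 TRBJ2-5: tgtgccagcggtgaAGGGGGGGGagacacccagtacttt
naive Treg non-pregnant rank 1, TRBV4 TRBJ2-2: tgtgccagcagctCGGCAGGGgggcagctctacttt
The leading clone of the EAE Tcon E18 library, TRBV1 with TRBJ1-1, held 1.37% of the reads (Wilson 95% interval 1.33% to 1.41%), and that of its naive partner held 0.141% (0.130% to 0.154%). The leading clone of the EAE Tcon non-pregnant library, TRBV19 with TRBJ2-7, held 3.57% (3.51% to 3.62%), against 0.0969% (0.0875% to 0.107%) for the naive one. In Treg the leading EAE clone, TRBV1 with TRBJ2-7, held 1.78% (1.74% to 1.82%), against 0.465% (0.448% to 0.483%) in the naive library. The EAE leader was thus the larger one in all 3 pairs. Intervals cover counting error only, since the labels name no molecular identifiers and PCR copies of 1 template count as separate reads. All 18 clones ranked 1 to 3 had 1 nucleotide sequence each for their V segment and CDR3 amino acids. Of the 3 leaders of the EAE Tcon E18 library, each was listed again in 1 Treg library of EAE E18 mice that bears the same replicate number, at 0.0382%, 0.0343% and 0.0427% of its reads. Of the 2854 clones of at least 0.01% in this Tcon library, 286 were listed in that Treg library, and 4 to 77 in any other library. Of the 9 EAE clones shown, 1 was listed in the naive library of its own pair, the TRBV1 TRBJ1-1 leader with 4 reads.

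The libraries held 406536 reads in 13935 clones (EAE Tcon E18), 366714 in 17203 (naive Tcon E18), 404098 in 8528 (EAE Tcon non-pregnant), 380987 in 19898 (naive Tcon non-pregnant), 415058 in 10550 (EAE Treg non-pregnant) and 571124 in 16002 (naive Treg non-pregnant). At 0 reads a clone could still hold up to 3 reads' worth of the library, or 0.000525% to 0.000818%. The EAE Tcon non-pregnant library stands apart: it has the fewest clones, and 37.4% of them have 1 read at equal reads, against 15.2% to 24.2% in the other 5. Results that rest on its pair are given without it below. All Tcon libraries carry 1 run code and all Treg libraries another, so every pair lies within a run. TRBV13-2, TRBV29 and TRBV1, which natural killer T cells favour, together held 21.2%, 25.4% and 20.9% of EAE clones and 22.7%, 22.5% and 20.1% of naive clones, in the order Tcon E18, Tcon non-pregnant, Treg. They held 31.4%, 34.0% and 31.2% of EAE reads and 33.2%, 27.9% and 24.8% of naive reads, higher in EAE in both non-pregnant pairs, and the part of such cells in the read-based differences was not tested.

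The clone-size distribution behind the 10 largest clones was steeper in EAE libraries. Between 0.1% and 1% of reads there were 35, 134 and 111 clones in the EAE libraries (Tcon E18, Tcon non-pregnant, Treg non-pregnant) and 1, 0 and 13 in their naive partners. At 1% or above there were 1, 1 and 4 EAE clones and 0 naive ones. The naive libraries instead held more clones in every band below. Between 0.01% and 0.1% there were 2818, 2089 and 2219 clones in EAE and 3328, 2990 and 3257 in naive libraries. Between 0.001% and 0.01% the EAE libraries listed 6995, 2246 and 4259 clones and the naive ones 9148, 11354 and 8074. The groups do not overlap in any of these bands. Below 0.001% of reads, EAE had 4086, 4058 and 3957 clones and naive 4726, 5554 and 4658.

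**Figure D1:**
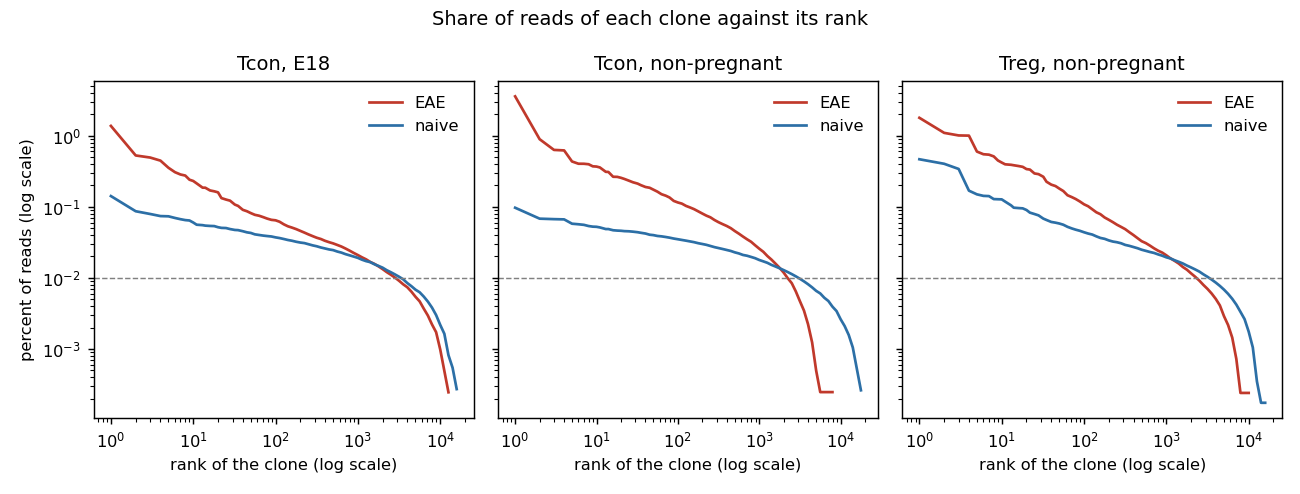
Percent of reads of each clone (log scale) against its rank in the library (log scale), with a panel for each pair, EAE in red and naive in blue. The dashed line is 0.01% of reads, above which a clone is called large. The EAE curve starts above the naive one in each panel and crosses it beyond rank 1000.

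In reads, the same bands show where the weight moved. Clones between 0.1% and 1% took 6.83%, 24.2% and 22.3% of EAE reads against 0.141%, 0% and 2.52% of naive reads. Clones of 1% or more added 1.37%, 3.57% and 4.88% in the EAE libraries. The middle band of 0.01% to 0.1% held most reads in all 6 libraries and did not differ in 1 direction: 59.7%, 60.6% and 52.3% in EAE and 58.5%, 51.6% and 60.0% in naive. Clones under 0.01% held less in EAE, with 32.1%, 11.6% and 20.5% of EAE reads and 41.4%, 48.4% and 37.4% of naive reads. The mean difference in this last value was -21.01 percentage points (SD of 3 pairs 14.2). The exact permutation test that exchanges labels within pairs has 8 assignments and gave p = 0.25, the smallest p that 3 pairs allow. No p of this test over the 3 pairs can therefore pass 0.05. It is 0.25 whenever all 3 differences have the same sign, whatever their size.

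**Figure D2:**
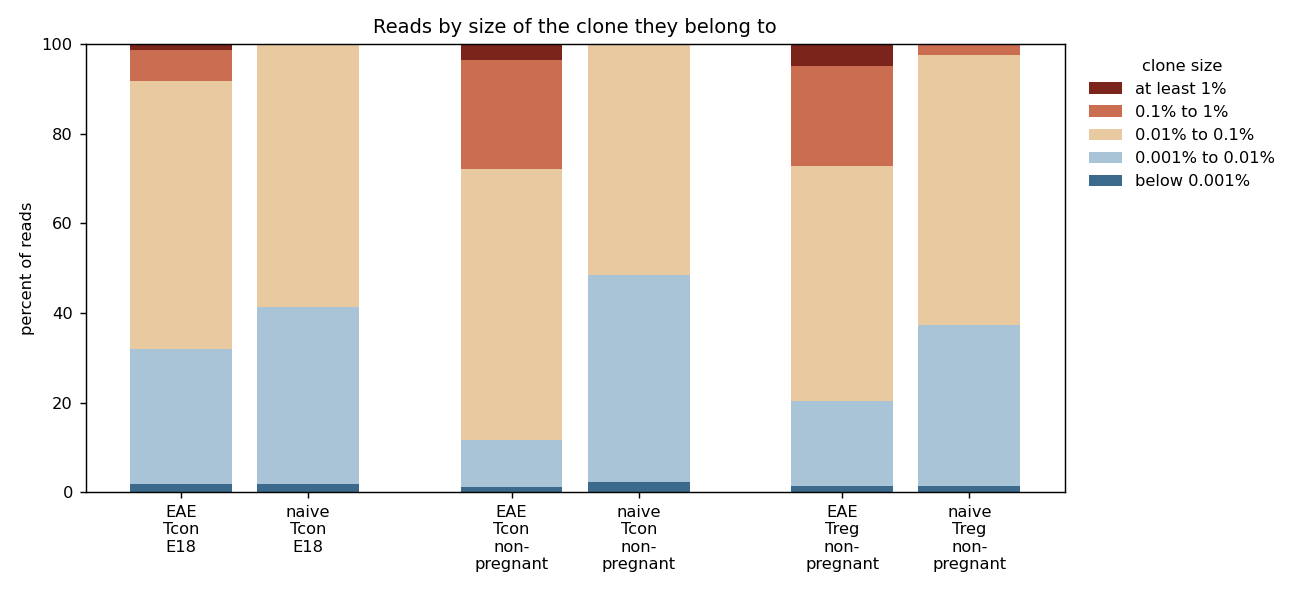
Percent of reads (0 to 100) in clones of 5 sizes, 1 bar per library, with EAE left of naive in each pair. Clones of 0.1% or more take a visible part of all 3 EAE bars, and of the naive Treg bar, where the 13 clones of 0.1% to 1% hold 2.52%.

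Most measures of the distribution that follow gave the same direction in all 3 pairs. The share of clones with 1 read and the slope over ranks 1 to 10 did not. Neither did the median reads per clone, at 13, 6 and 11 in EAE and 12, 10 and 19 in naive libraries. Clones of 1 to 3 reads were mixed too, at 25.9%, 45.8% and 34.7% of EAE clones and 27.5%, 27.9% and 24.9% of naive clones. The 10 largest clones held 4.52%, 8.08% and 7.94% of EAE reads and 0.779%, 0.627% and 2.19% of naive reads, a mean difference of 5.65 percentage points (SD 1.86, exact permutation p = 0.25). Evenness, which is 1 when all clones are equal, was 0.908, 0.844 and 0.855 in EAE against 0.939, 0.939 and 0.934 in naive libraries at equal reads. The mean difference was -0.0681 (SD 0.0335, exact permutation p = 0.25), and all naive values lie above all EAE values. The naive libraries differ from each other by little in evenness, while the EAE libraries spread over a wider range. It took 1451, 471 and 575 clones to reach 50% of the reads in EAE, against 2539, 2836 and 2185 in naive libraries. Without the Tcon non-pregnant pair the mean differences were 4.75 percentage points for the 10 largest clones and -0.0546 for evenness.

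The slope of log10 share on log10 rank, fitted from rank 10 to rank 1000, covers the clones behind the leaders. It was -0.47, -0.61 and -0.72 in EAE and -0.27, -0.26 and -0.36 in naive libraries, a mean difference of -0.30 (SD 0.087, exact permutation p = 0.25). Over ranks 100 to 1000 alone it was -0.47, -0.67 and -0.73 in EAE and -0.30, -0.30 and -0.34 in naive. Between ranks 1 and 10 the Treg pair did not share the direction, at -0.63 in EAE and -0.67 in naive, whereas both Tcon pairs did, at -0.71 and -0.89 in EAE against -0.32 and -0.25 in naive. The tail from rank 1000 to rank 5000 was steeper in EAE too, with -0.84, -2.37 and -1.18 against -0.64, -0.62 and -0.67. The ratio of EAE over naive share was 3.84, 7.03 and 3.29 at rank 10, 1.74, 3.29 and 2.47 at rank 100, and 1.10, 1.44 and 1.07 at rank 1000. At rank 5000 it was 0.763, 0.0725 and 0.459.

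EAE libraries also held fewer clones: 13718, 8216 and 10235 against 17203, 19774 and 14871 in naive libraries after thinning to 366714 reads. The mean difference was -6560 clones (SD 4367, exact permutation p = 0.25), and -4061 without the Tcon non-pregnant pair. Without this pair the difference in reads under 0.01% was -13.1 percentage points. In these tables fewer cells in a sample and larger clones cannot be told apart, since the number of cells is unknown. Clones with 1 read made up 15.2%, 37.4% and 24.2% of EAE clones and 17.0%, 15.9% and 15.7% of naive clones, so EAE was lower in the E18 pair and higher in both non-pregnant pairs (mean 9.41 percentage points, exact permutation p = 0.5). Without the Tcon non-pregnant pair the mean was 3.35. Thinned to 100000 reads it was 2.33 (exact permutation p = 0.25), a p that occurs when all 3 pairs share the direction, so the lower value at E18 depends on the depth compared.

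Many small clones resemble larger ones. Of the clones with 1 to 3 reads, called small here, 34.9%, 15.4% and 24.0% in EAE and 37.3%, 36.1% and 36.6% in naive libraries differed by 1 base from a clone of the same length with at least 5 times their reads. Among clones of at least 0.01% of reads, called large here, this share was 0% to 0.270%. The largest ratio of reads between such neighbours was 42. The part of read errors in these neighbours was not tested. Without these clones evenness was 0.915, 0.850 and 0.861 in EAE and 0.947, 0.946 and 0.940 in naive, and the clones with 1 read 9.98%, 34.0% and 20.5% against 10.9%, 9.39% and 10.7%.

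Reads per clone differed between V segments within a library. Among clones of at least 4 reads, the median of TRBV1 was 1.95, 1.29 and 2.50 times that of its library in EAE and 1.55, 1.82 and 2.00 times in naive. TRBV29 (Vβ7) varied between libraries, at 1.31, 0.947 and 1.33 times in EAE against 2.40, 0.647 and 0.516 times in naive. TRBV29 made up 24% of the 100 largest clones of the naive Tcon E18 library and 0% to 3% in the other 5. With the reads of every V segment scaled to 1 median per library, the 10 largest clones held 4.06%, 9.37% and 7.03% in EAE and 0.704%, 0.557% and 2.20% in naive. The slopes were -0.47, -0.55 and -0.72 against -0.25, -0.26 and -0.37 with that scaling. EAE and naive thus differed in the same direction in all 3 pairs with the V segments set equal.

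V and J segments were used in close to the same proportions in EAE and naive libraries when each clone counted once. edgeR's quasi-likelihood test called 0 of 34 segments (0% called), and DESeq2 called 0. Without adjustment 2 segments had p under 0.05, and the smallest adjusted p was 0.650. The median size of the fitted log2 change was 0.077 with a median SE of 0.11. TRBV13-2 made up 12.7%, 16.3% and 12.5% of EAE clones and 13.6%, 13.5% and 12.2% of naive clones (log2 change 0.13, SE 0.10, edgeR adjusted p = 0.825). It was higher in the non-pregnant EAE Tcon library than in all others, and the remaining 5 values lie close together. That higher share was not found at every clone size. In that library TRBV13-2 made up 19.8% of clones of 1 read, 8.16% of 4 to 10 reads and 25.7% above 100 reads. In its naive partner these were 12.5%, 13.0% and 15.0%. TRBV16 (Vβ11) had the lowest p, with 5.87%, 6.07% and 6.91% of EAE clones against 5.44%, 5.55% and 5.52% of naive clones (log2 change 0.25, SE 0.11, edgeR adjusted p = 0.650). Its groups do not overlap, but the change did not pass the test, and TRBV16 was picked for its low p from these same values. The groups of TRBJ1-4 do not overlap either and lie the other way. TRBJ1-4 made up 0.251%, 0.270% and 0.199% of EAE clones against 0.320%, 0.317% and 0.287% of naive clones. In reads TRBV16 lay the other way, with 7.85%, 6.14% and 9.38% in EAE against 8.12%, 8.28% and 9.78% in naive libraries, and among large clones with 9.22%, 6.92% and 10.4% in EAE against 9.94%, 10.3% and 11.4% in naive. TRBV13-2 lies at chr6:41121396-41121832 and TRBV16 at chr6:41151791-41152230 (mm10). TRBV16 and TRBV19 were named after their values were seen.

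The other segments of the lists showed no common direction. TRBV13-1 (Vβ8.3) made up 5.83%, 4.70% and 5.46% of EAE clones and 6.10%, 5.75% and 4.96% of naive clones. TRBV13-3 (Vβ8.1), a close paralog whose reads may be split with the other TRBV13 members, lay at 0.341% to 0.481% in EAE and 0.291% to 0.513% in naive. TRBV12-1 (Vβ5.2) was more common in Treg than in Tcon in both conditions, a contrast in which cell type and run code cannot be told apart. It made up 0.983%, 0.962% and 5.31% of EAE clones against 1.09%, 1.17% and 4.51% of naive ones. TRBV12-2 (Vβ5.1), its paralog, was at or below 0.123% in all 6 libraries. TRBV1 (Vβ2) ranged from 6.17% to 7.53% over the 6 libraries and TRBV29 from 1.46% to 2.24%. J cluster 1, the TRBJ1 segments between the 2 D segments on chromosome 6, made up 27.6%, 29.8% and 27.1% of EAE clones and 27.8%, 28.1% and 29.1% of naive clones. The J cluster 2 segments made up the rest. In reads, J cluster 1 held 23.3%, 24.2% and 20.7% in EAE against 24.2%, 25.5% and 26.0% in naive, lower in EAE in each pair (mean difference -2.53 percentage points, exact permutation p = 0.25).

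TRBJ1-5 had the largest fitted change, and it came from 1 pair. It was at 0.122%, 1.67% and 1.41% of EAE clones and 0.105%, 0.121% and 1.75% of naive clones (log2 change 1.14, SE 0.87, edgeR adjusted p = 0.825). Both E18 libraries and the naive Tcon non-pregnant library lay near 0.1%, and the other 3 above 1%. The 17 libraries of the series fall apart in the same way, 7 of them between 0.105% and 0.222% and 10 between 1.25% and 3.17%. TRBJ1-5 lies at chr6:41535084-41535133 (mm10). It was named after its values were seen.

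**Figure D3:**
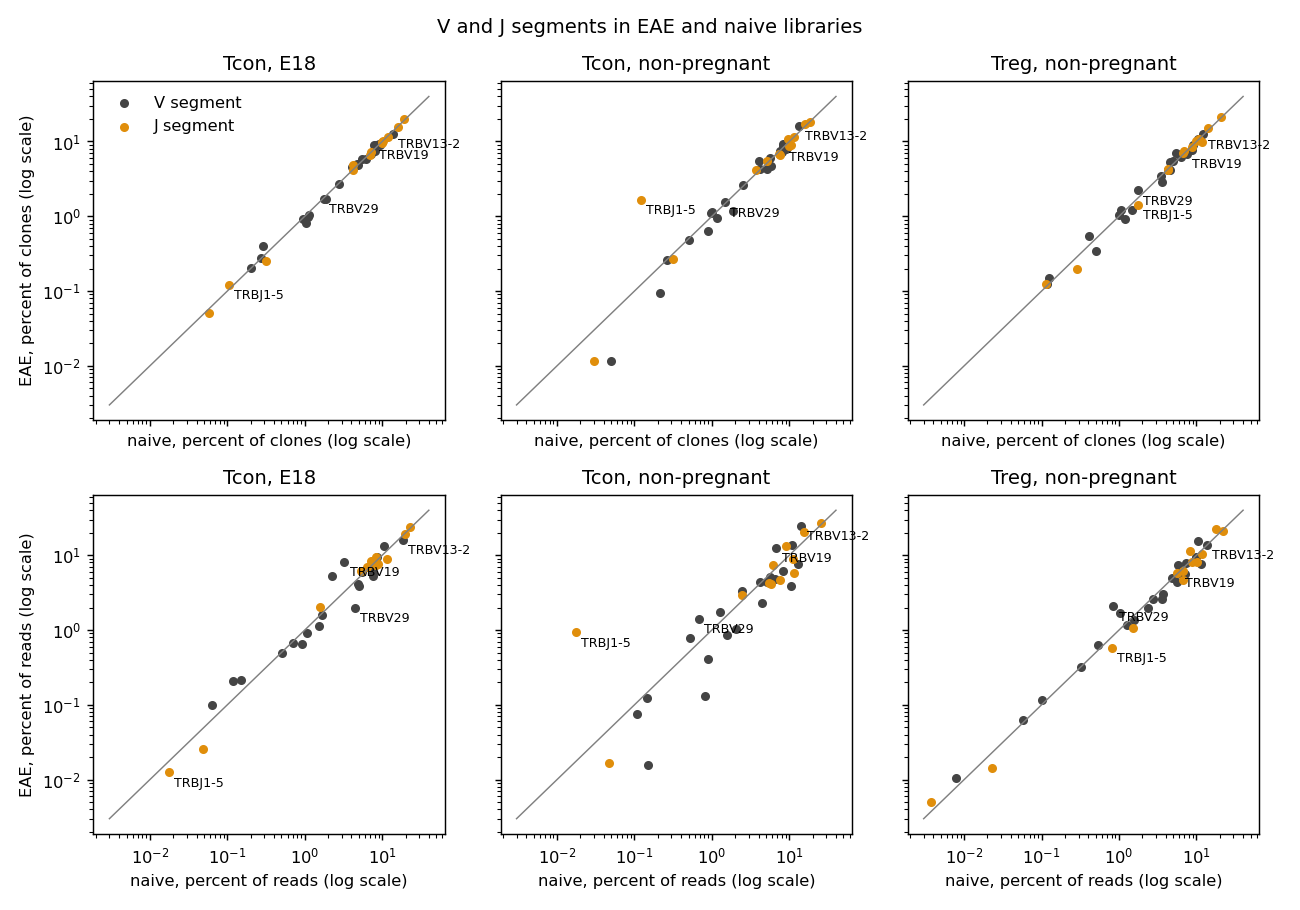
EAE against naive percent of clones (upper row) and percent of reads (lower row), both on log scales, 1 point per V (dark) or J (orange) segment, 1 column of panels per pair. The line marks equal values. Points lie near the line by clones and scatter more by reads, and TRBJ1-5 stands off it in the Tcon non-pregnant pair.

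Weighted by reads, segment usage moved more and passed no test either. edgeR called 0 of 36 segments (0% called), and DESeq2 called 0. Without adjustment 0 segments had p under 0.05 in edgeR and 2 in DESeq2, and edgeR's smallest adjusted p was 0.709. The median size of the log2 change was 0.22, with a median SE of 0.28. TRBV19 (Vβ6) had the lowest p: it held 8.11%, 12.6% and 5.78% of EAE reads and 3.24%, 6.81% and 6.08% of naive reads (log2 change 0.86, SE 0.35, edgeR adjusted p = 0.709). It was higher in EAE in both Tcon pairs and not in Treg. Without the 10 largest clones of each library TRBV19 held 7.47%, 9.45% and 5.73% of EAE reads and 3.27%, 6.85% and 6.21% of naive reads. By clones it made up 9.03%, 8.68% and 6.83% in EAE against 7.81%, 8.31% and 7.55% in naive libraries. Of the TRBV19 clones 15.9%, 32.7% and 17.6% reached 0.01% of reads in EAE and 2.53%, 10.2% and 14.6% in naive, higher in EAE in each pair (exact permutation p = 0.25). Over all clones this share was 20.5%, 26.1% and 22.1% in EAE and 19.4%, 15.0% and 20.4% in naive, also higher in each pair. Of the other V segments, TRBV3, TRBV13-3, TRBV21, TRBV24, TRBV26 and TRBV30 were higher in all 3 pairs by this measure. The median reads of TRBV19 clones, relative to the library, were 0.905, 1.18 and 0.808 in EAE and 0.5, 0.941 and 0.871 in naive. TRBV19 (chr6:41178589-41179048, mm10) made up 11%, 7% and 4% of the 100 largest EAE clones and 0%, 2% and 2% of the 100 largest naive clones.

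TRBV13-2 reads were close within the Treg pair and furthest apart in the Tcon non-pregnant pair. They were 16.0%, 24.9% and 13.8% in EAE and 18.3%, 14.2% and 13.6% in naive libraries (log2 change 0.35, SE 0.33, edgeR adjusted p = 0.885). Among the 100 largest clones TRBV13-2 made up 20%, 41% and 11% in EAE against 38%, 13% and 20% in naive. It was the commonest V segment there in both E18 libraries, the non-pregnant EAE Tcon library and the naive Treg library, and EAE stood above naive in the Tcon non-pregnant pair alone. TRBV12-1 held 0.651%, 0.405% and 3.03% of EAE reads and 0.913%, 0.889% and 3.75% of naive reads, lower in EAE in each pair (log2 change -0.51, SE 0.22, edgeR adjusted p = 0.709).

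The pairing of V with J segments was tested over the 184 combinations with a mean of at least 10 clones, out of 287 seen. By clones edgeR called 0 of 184 (0% called), and DESeq2 called 0. Without adjustment 8 had p under 0.05 in edgeR, and its smallest adjusted p was 0.432. By reads edgeR called 0 of 184 (0% called), and DESeq2 called 0. Without adjustment 5 had p under 0.05 in edgeR, and its smallest adjusted p was 0.832. The 3 lowest p-values by reads belonged to TRBV19 with TRBJ2-5 (log2 change 1.14, SE 0.42), TRBJ2-7 (1.12, SE 0.45) and TRBJ2-2 (1.18, SE 0.47). The lowest p by clones belonged to TRBV16 with TRBJ2-2, at 0.409%, 0.493% and 0.502% of EAE clones against 0.320%, 0.281% and 0.275% of naive clones (log2 change 0.70, SE 0.19, edgeR adjusted p = 0.432). All 3 EAE values lie above all 3 naive values, but the combination was picked as the lowest p of 184 from these same values. That separation is therefore no further support. The combination rests on 42 to 57 clones per EAE library and 44 to 56 per naive library. TRBV3 with TRBJ1-2 made up 0.653%, 0.750% and 0.607% of EAE clones and 0.331%, 0.447% and 0.650% of naive clones (log2 change 0.56, SE 0.20, edgeR adjusted p = 0.878). It was the 1 combination called under any alternative: among clones of at least 2 reads its adjusted p was 0.0177, and without the Treg pair 0.0178.

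Of 103 combinations with a mean of at least 50 clones, 8 were higher in EAE in all 3 pairs, 15 were lower in all 3 and 80 were mixed, with a median log2 difference of -0.04. The 5 with the largest mean increase among the 8 were TRBV16 with TRBJ2-2 (mean log2 0.68), TRBV20 with TRBJ2-3 (0.43), TRBV5 with TRBJ1-3 (0.32), TRBV16 with TRBJ2-1 (0.25) and TRBV16 with TRBJ2-5 (0.24). Among the 5 there are 3 with TRBV16, but with clones of at least 2 reads the mean of TRBV16 with TRBJ2-1 was 0.03 and that of TRBV16 with TRBJ2-5 0.09. The 5 with the largest mean decrease were TRBV4 with TRBJ2-5 (-0.48), TRBV4 with TRBJ1-1 (-0.41), TRBV19 with TRBJ1-6 (-0.32), TRBV2 with TRBJ2-2 (-0.28) and TRBV1 with TRBJ2-3 (-0.28). None of these passed the test. Some shared directions are narrow: TRBV16 with TRBJ2-1 was at 0.02 and TRBV4 with TRBJ1-1 at -0.01 in the Tcon non-pregnant pair, and TRBV1 with TRBJ2-3 at -0.01 in the E18 pair. Without the Treg pair the mean of TRBV4 with TRBJ1-1 was -0.04 and that of TRBV19 with TRBJ1-6 -0.16, and without the Tcon non-pregnant pair that of TRBV1 with TRBJ2-3 was -0.10.

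V and J shared little information in every library. The mutual information between them, 0 for independent joining, was 0.02004, 0.0271 and 0.0272 bits in EAE and 0.0220, 0.0210 and 0.0242 bits in naive libraries over 8528 clones each (mean difference 0.0024, SD 0.0041, exact permutation p = 0.5). EAE was lower in the E18 pair and higher in both others. Observed over expected counts show which combinations depart from independence. TRBV2 with TRBJ1-2 had the highest median over the 6 libraries, at 1.18, 1.31 and 2.21 times its expected count in EAE and 1.35, 1.62 and 1.66 times in naive. TRBV5 with TRBJ1-3 had the lowest median, 0.734, but was at 1.2 in the EAE Tcon non-pregnant library. TRBV13-2 with TRBJ1-1 was below 1 in all 6 libraries, at 0.779, 0.691 and 0.643 times in EAE and 0.8004, 0.830 and 0.783 times in naive.

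Large and small clones of the same library were then compared. There were 2854, 2224 and 2334 large clones in EAE and 3329, 2990 and 3270 in naive libraries, and 3613, 3910 and 3664 small ones in EAE against 4726, 5554 and 3978 in naive. The test exchanges the sign of the large minus small difference in each of the 6 libraries, which gives 64 assignments and a smallest p of 0.0312. The smallest value after adjustment over the 10 features was 0.0521, so no feature passed 0.05 after adjustment. The features at that smallest exact p had the same direction in 6 of 6 libraries.

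Large clones used J cluster 1 less than small clones in all 6 libraries. Its share was 22.9%, 28.3% and 22.8% of large against 34.3%, 29.6% and 31.1% of small clones in EAE. In naive libraries it was 22.5%, 25.1% and 25.4% of large against 33.0%, 33.1% and 34.6% of small clones. The mean difference was -8.12 percentage points (SD 3.57, n = 6, exact permutation p = 0.0312, adjusted p = 0.0521). The EAE Tcon non-pregnant library had the smallest difference, -1.31, and the others ranged from -11.4 to -8.01. With the 1000 largest clones against 1000 around the median rank the mean was -3.8, and the naive Treg library was at 0.5. The commoner segments of the cluster were split. TRBJ1-1 and TRBJ1-2 were less frequent among large than among all clones in all 6 libraries, and TRBJ1-3 and TRBJ1-6 more frequent. In the EAE Tcon E18 library TRBJ1-1 made up 5.12% of large and 11.6% of all clones, and TRBJ1-3 9.25% and 6.54%. Median reads per clone also differed by J segment, at 3 to 5 for TRBJ1-2 and 14 to 37 for TRBJ1-3. The part of this in the J cluster 1 difference was not tested.

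TRBV12-1 was also less frequent among large clones in all 6 libraries, with a mean difference of -0.57 percentage points (exact permutation p = 0.0312, adjusted p = 0.0521). The difference was -0.43, -0.54 and -1.43 in EAE and -0.35, -0.48 and -0.21 in naive libraries. Without the 1-base neighbours the mean was -0.42 and the naive Treg library was at 0.318 (exact permutation, adjusted p = 0.125). TRBV13-2 was more frequent among large clones in 5 of 6 libraries: 17.2% of large against 11.9% of small clones in the EAE Tcon E18 library and 18.7% against 12.0% in its naive partner. In the EAE Treg library it was less frequent, 11.4% against 13.8% (mean difference 2.18 percentage points, exact permutation p = 0.219, adjusted p = 0.273). The largest difference of the 6, 6.74, was in the naive Tcon E18 library. Without the Tcon E18 pair the mean was 0.262, and with the 1000 largest clones against 1000 around the median rank it was 7.

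Fewer random bases were found at the joints of large clones. They carried 2.88, 2.85 and 2.83 inserted bases on average against 3.45, 3.13 and 3.38 in small clones of EAE libraries. In naive libraries large clones carried 2.93, 2.81 and 2.83 against 3.42, 3.32 and 3.55 in small clones. The mean difference was -0.52 bases (SD 0.14, exact permutation p = 0.0312, adjusted p = 0.0521). With the 1000 largest clones against 1000 around the median rank it was -0.0987, with the EAE Treg library at 0.029, with small clones of 2 to 5 reads -0.29, and without the 1-base neighbours -0.55. Rearrangements with no inserted base made up 17.3%, 17.5% and 16.4% of large against 14.3%, 15.8% and 16.4% of small clones in EAE, and 16.0%, 17.3% and 17.3% of large against 14.1%, 14.2% and 15.9% of small clones in naive libraries. The mean difference was 1.87 percentage points (exact permutation p = 0.0312, adjusted p = 0.0521), and it was 0.0023 in the EAE Treg library. With the 1000 largest clones against 1000 around the median rank, the naive Tcon E18 and EAE Treg libraries were at -1.3 and -0.9 (exact permutation, adjusted p = 0.312). With small clones of 2 to 5 reads both Treg libraries lay below 0 (exact permutation, adjusted p = 0.234).

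**Figure D4:**
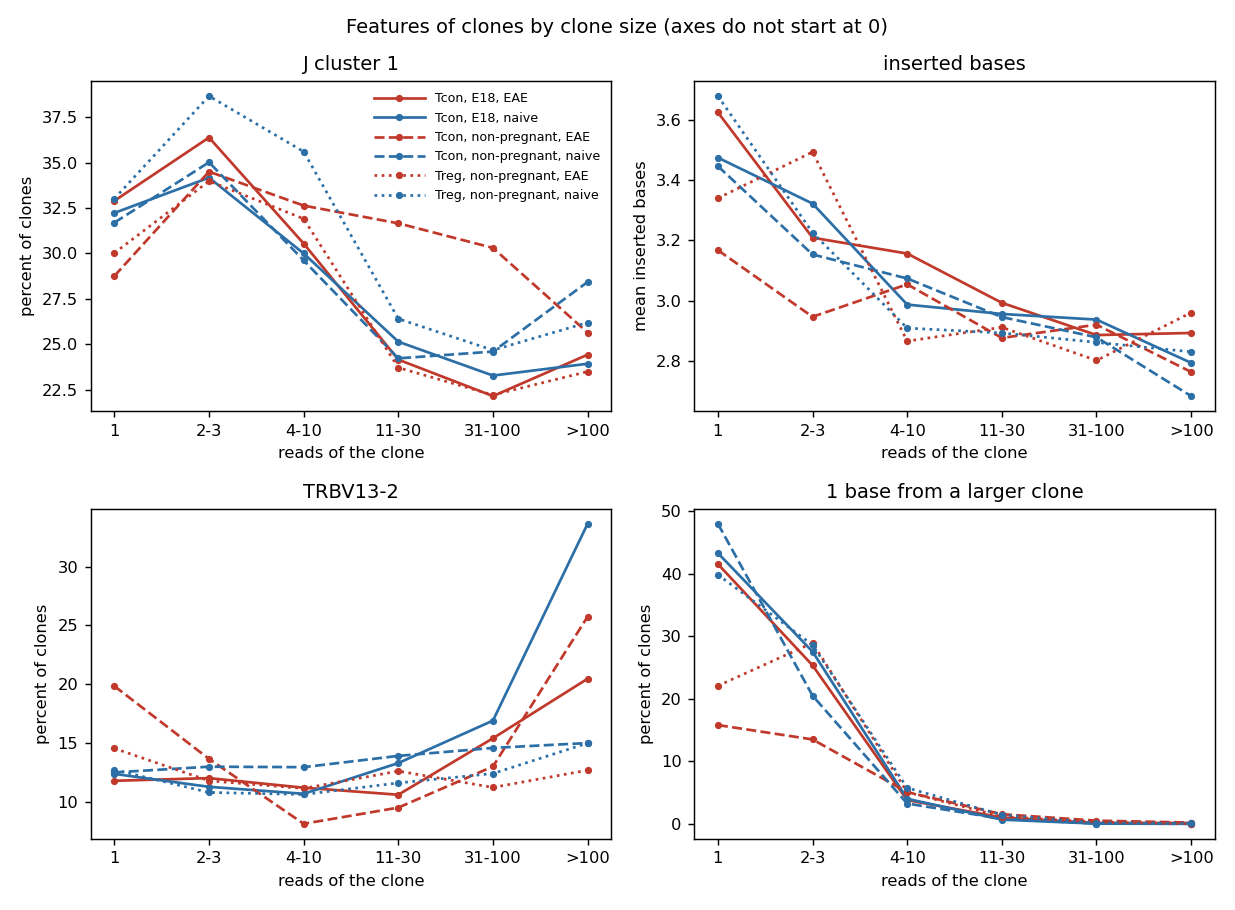
Share of J cluster 1, mean inserted bases, share of TRBV13-2 and share of clones 1 base from a larger clone (y axes) against the reads of the clone in 6 size classes (x axis), 1 line per library, EAE in red and naive in blue. J cluster 1 is highest at 2 to 3 reads in all 6 libraries. In the EAE Tcon non-pregnant library and both Treg libraries it is higher at 4 to 10 reads than at 1 read. Inserted bases and neighbours of larger clones are highest at 1 read or at 2 to 3 reads.

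The size classes show where the share changed. In the EAE Tcon E18 library J cluster 1 made up 32.9% of clones of 1 read, 36.4% of 2 to 3 reads, 30.6% of 4 to 10 reads and 24.2% of 11 to 30 reads. In its naive partner these were 32.2%, 34.2%, 30% and 25.2%. Above 100 reads it made up 24.4% in EAE and 23.9% in naive. The EAE Tcon non-pregnant library had 31.7% at 11 to 30 reads and 25.7% above 100 reads. The share of clones 1 base from a larger clone fell over the same classes, at 41.6%, 25.4%, 3.79% and 1.007% in EAE and 43.3%, 27.5%, 4.00% and 0.661% in naive. Without these neighbours the large minus small difference in J cluster 1 was -14.95, -0.603 and -9.75 in EAE and -13.6, -11.98 and -12.4 in naive libraries.

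Large clones were convergent less often, meaning that their V segment and CDR3 amino acids were encoded by more than 1 listed nucleotide sequence. Convergent clones were 6.24%, 4.63% and 5.44% of large against 15.0%, 8.57% and 9.91% of small clones in EAE. In naive libraries they were 7.03%, 6.62% and 5.66% of large against 14.6%, 15.3% and 14.8% of small clones. The mean difference of -7.10 percentage points (exact permutation p = 0.0312, adjusted p = 0.0521) shrank to -0.65 without the 1-base neighbours, where the naive Tcon E18 library was at 0.374.

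CDR3 length, net charge and hydrophobic residues did not separate large from small clones in 1 direction. Large clones had a mean CDR3 of 13.73, 13.60 and 13.74 amino acids against 13.83, 13.85 and 13.70 in small clones of EAE libraries, and 13.74, 13.79 and 13.75 against 13.87, 13.84 and 13.71 in naive ones. They were shorter in the 4 Tcon libraries and not in the 2 Treg libraries (mean difference -0.0758, exact permutation p = 0.156, adjusted p = 0.223). With the 1000 largest clones against 1000 around the median rank they were shorter in all 6, by a mean of -0.289, and without the Tcon non-pregnant pair the mean of large minus small was -0.0394. The largest 100 clones of the non-pregnant EAE Tcon library had a mean of 12.92 amino acids, and those of the other 5 libraries 13.40 to 13.97. The mean difference in net charge was -0.0212 (exact permutation p = 0.469, adjusted p = 0.5).

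Hydrophobic residues at CDR3 positions 6 and 7 have been tied to self-reactivity of T cells. At least 1 such residue was present in 24.8%, 25.3% and 28.5% of large and 22.7%, 24.1% and 26.4% of small clones in EAE libraries. In naive libraries it was present in 23.7%, 22.7% and 26.8% of large and 24.0%, 24.2% and 27.7% of small clones. Large exceeded small clones in the 3 EAE libraries, by 2.12, 1.21 and 2.10 percentage points, and lay below them in the 3 naive ones, with differences of -0.29, -1.44 and -0.90. The groups do not overlap. No other feature of the 10 compared separated EAE from naive libraries in this way. Whether 1 such separation among 10 features exceeds chance was not tested. The mean EAE minus naive difference was 2.69 percentage points (SD 0.30 over 3 pairs, exact permutation p = 0.25, adjusted p = 0.714). This mean had the same sign in all 8 alternatives, from 1.58 to 3.53. The sign of the large minus small difference itself did not hold: with the 1000 largest clones against 1000 around the median rank it was -0.651, -0.248 and 2.92 in EAE and 0.7, -4.48 and -4.8 in naive, so the E18 pair also turned round in its EAE minus naive difference.

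**Figure D5:**
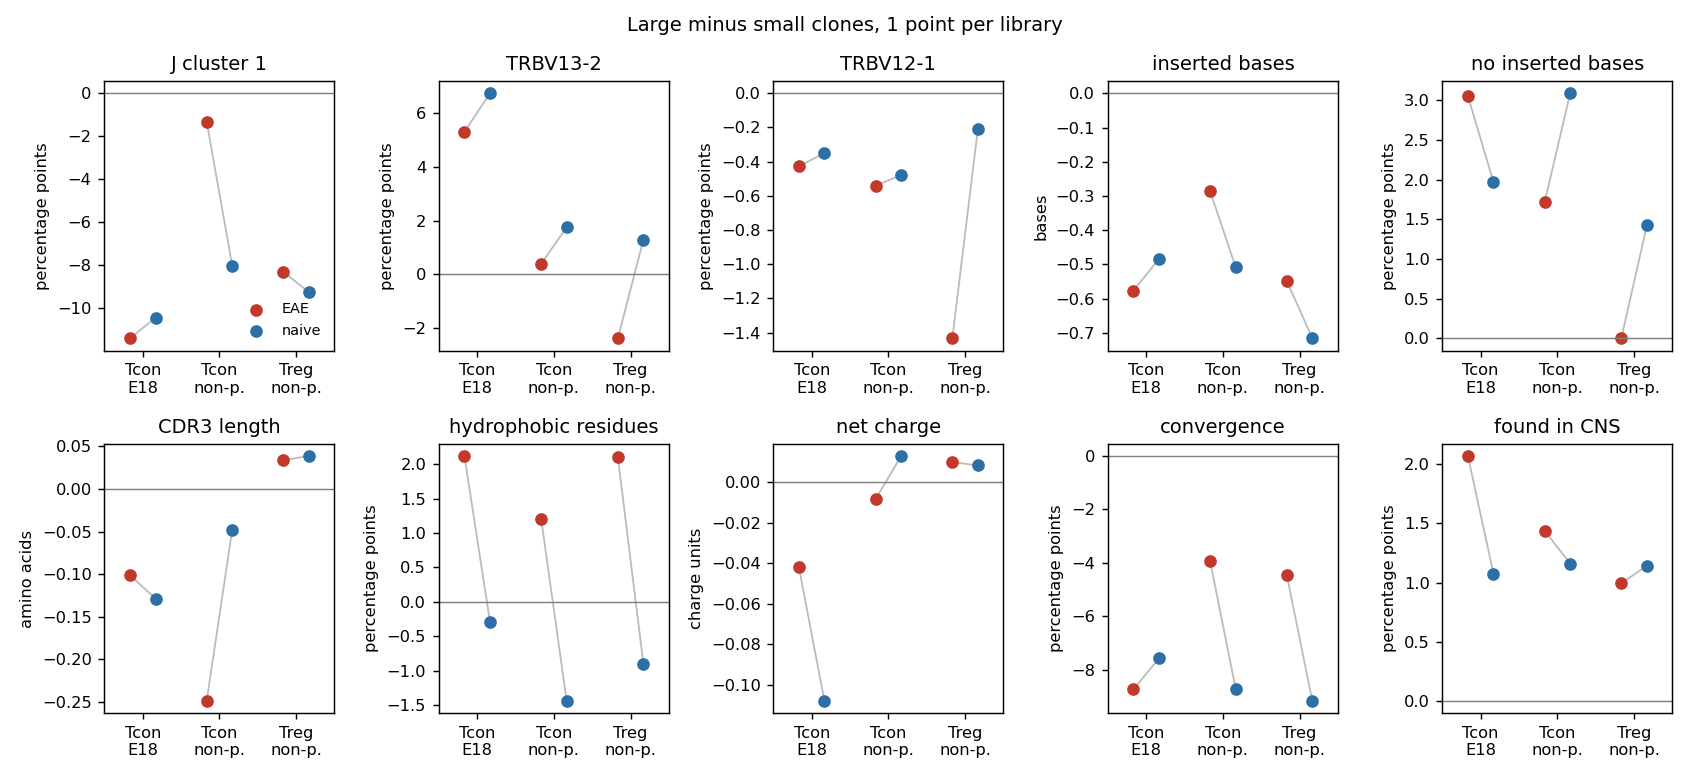
Large minus small difference in 10 features, 1 point per library, with EAE (red) left of naive (blue) in each pair and a grey line at 0. J cluster 1, TRBV12-1, inserted bases and convergence lie below 0 in all 6 libraries, and hydrophobic residues lie above 0 in the 3 EAE libraries and below 0 in the 3 naive ones. In every other feature the EAE and naive values overlap.

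Clones whose V segment and CDR3 amino acids were also listed in CD8- T cells from the central nervous system (CNS) of C57BL/6 EAE mice were more frequent among large clones. They made up 3.26%, 4.05% and 3.04% of large against 1.19%, 2.61% and 2.05% of small clones in EAE. In naive libraries they made up 2.49%, 2.47% and 2.599% of large against 1.42%, 1.31% and 1.46% of small clones. The mean large minus small difference was 1.31 percentage points (SD 0.40, exact permutation p = 0.0312, adjusted p = 0.0521). Among large clones all 3 EAE values lie above all 3 naive ones, a mean difference of 0.927 percentage points (SD 0.58, exact permutation p = 0.25). The pair differences were 0.765, 1.57 and 0.443, largest in the Tcon non-pregnant pair. Of all clones, those found in the CNS made up 1.93%, 2.74% and 2.19% in EAE and 1.77%, 1.78% and 1.82% in naive libraries. The separation was thus not particular to large clones. In reads these clones took 3.11%, 6.42% and 3.10% in EAE and 2.26%, 2.21% and 2.61% in naive libraries. With rearrangements under 1/100 of their share in another library removed, the values among large clones were 2.87%, 3.33% and 2.53% in EAE and 2.04%, 2.07% and 2.05% in naive.

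The same was done with the clonotypes of the 3 peripheral libraries of C57BL/6 EAE mice. Clonotypes listed there made up 9.29%, 8.23% and 6.60% of large clones in EAE and 7.69%, 7.53% and 7.13% in naive libraries. Among small clones they made up 4.82%, 5.55% and 5.81% in EAE and 4.38%, 4.56% and 4.12% in naive. They were thus also more frequent among large clones in every library, so this trait was not particular to the CNS list. Among large clones EAE was higher in both Tcon pairs and lower in Treg. The periphery list held 24448 clonotypes and the CNS list 5922, so the shares themselves cannot be set against each other.

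EAE and naive libraries of a pair shared few large clones, as did the other pairings of the 6 libraries. Identical rearrangements that were large on both sides numbered 11, 13 and 13, which is 0.385%, 0.585% and 0.557% of the large EAE clones and 0.330%, 0.435% and 0.398% of the large naive clones. Of the large EAE clones 58, 40 and 43 were listed at any size in the naive partner, and of the large naive clones 46, 45 and 71 in the EAE partner. No more than 0.585% of the large clones of a library were thus large in the other library of its pair. Other pairings of the 6 libraries shared 6 to 21 such rearrangements, with 16 between the naive Tcon libraries and 11 between the EAE Tcon libraries. Low sharing was therefore not particular to EAE against naive.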

How the data were processed

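Per the labels' protocols, rearrangements were amplified from genomic DNA with primers for V and J segments. The deposited tables list 1 in-frame CDR3 nucleotide sequence per line with its V, D and J segments and its read count. The deposited fraction equals the count over the library's total. The program that assigned segments is not given in the sources used here, and the submitters' processing notes name the build mm10. Libraries lie at 366714 to 571124 reads and 19.1 to 47.4 reads per clone. The pairs, lists and tests were chosen with earlier results of these data known. Evenness, clone number and the share of clones with 1 read are means of 20 draws of 366714 reads from each library. Shares of the 10 largest clones, rank slopes and ratios, size bands and reads under 0.01% use all reads of each library, so depth differs there. The distribution measures were compared by exact 2-sided permutation within 3 pairs. Segments and V-J combinations with a mean count of at least 10 were tested with edgeR 4.0.16 (quasi-likelihood, TMM, pair as a term), with DESeq2 1.42.0 as an alternative, at an adjusted p of 0.05. Large minus small differences were tested by exact 2-sided permutation over 6 libraries, with Benjamini-Hochberg adjustment over 10 features. CDR3 length, charge and hydrophobic residues use CDR3s that run from cysteine to phenylalanine or tryptophan, leaving out 0.903% to 1.26% of clones. Inserted bases are those between V, D and J. The text names segments past the threshold, TRBV13, TRBV12, TRBV29, TRBV1 and J cluster lists, up to 5 V-J combinations each way with 1 direction in all pairs and a mean of at least 50 clones, and the 3 largest clones per library. RefSeq (GRCm38.p6) gave positions for 38 of 38 segments. The edgeR and distribution scripts were tested on simulated data. Permutations ran in numpy 2.4.6 under Python 3.11.15, Wilson intervals in scipy 1.17.1 and the count models in R 4.3.3. The 29 labelled samples without a table were not analysed here.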

Additional observations from a re-analysis of the deposited data

Results flagged for a closer look

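Several differences between EAE and naive ran in opposite directions in the pairs, and none of these differences between pairs was tested, since each pair is 1 library against 1. The share of clones with 1 read differed by -1.80 percentage points in Tcon at E18 and by 21.5 in Tcon of non-pregnant mice, a gap of -23.3. The V-J mutual information differed by -0.0020 and 0.0061 bits in the same pairs, a gap of -0.0081.

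Among the large minus small differences, 6 features ran in opposite directions between these Tcon pairs. The gap, E18 minus non-pregnant, was 0.229 amino acids in CDR3 length, -0.315 inserted bases, 2.46 percentage points in clones with no inserted base and 0.0876 in net charge. For J cluster 1 EAE minus naive was -0.968 at E18 and 6.70 in non-pregnant mice, a gap of -7.67 percentage points. For convergence it was -1.17 and 4.78, a gap of -5.95. All 8 of these gaps set the Tcon pairs against each other, so each includes by definition the EAE Tcon non-pregnant library, the one with the fewest clones.

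Between Treg and Tcon of non-pregnant mice, net charge gave a gap of 0.0230. Clones found in the CNS gave a gap of -0.424 percentage points, from -0.146 in Treg and 0.278 in Tcon. Neither difference was tested.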

How the results depend on the processing

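No paired analysis was possible because each group holds 1 library and the replicate numbers differ within every pair, so that no replicate number could serve as a block; the 3 pairs tested are matched by cell type and gestational state. The mean of each of the 6 distribution measures had the same sign under every alternative tried, though single pairs did not always, and all missed 0.05 because 3 pairs cannot pass it. Without 1 pair at a time evenness differed by -0.0868 to -0.0546 and the 10 largest clones by 4.75 to 6.60 percentage points. Reads in small clones differed by -0.377 percentage points when small meant below 0.001% of reads, with the pairs no longer in 1 direction, and clones with 1 read by 2.33 after thinning to 100000 reads. The V-J mutual information turned to -0.0032 with clones of at least 0.01% of reads. V-J combinations by clones gave 1 call with at least 2 reads and 0 to 1 without 1 pair at a time.

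For large minus small, reweighting small clones to the V-J combinations of large ones, chosen after seeing the data, adjusts over 7 features, and the adjusted p fell to 0.0437 for length (-0.181), inserted bases (-0.409), no inserted base (2.05), convergence (-8.10) and found in CNS (0.983). Over the other settings the adjusted p for no inserted base reached 0.312. Hydrophobic residues turned to -0.666 there and to -1.09 with the 1000 largest against 1000 around the median rank. Net charge lay between -0.0364 and 0.0058 without 1 pair at a time.

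For EAE minus naive in those differences, the median-rank setting turned inserted bases to -0.0373, no inserted base to 0.967, net charge to -0.0386, TRBV13-2 to 4.87 and J cluster 1 to -4.27. Small clones of 2 to 5 reads turned inserted bases to -0.0386, net charge to -0.0277, TRBV13-2 to 0.218 and convergence to -0.0892. Reweighting turned length to 0.0040. Without 1 pair at a time length lay between -0.103 and 0.0112, net charge between -0.0098 and 0.0339 and J cluster 1 between -0.0071 and 3.83. The cause of these turns was not tested. At this depth clones of 1 to 3 reads are the least precisely measured, and the effect of the unknown cell numbers was not tested.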
